A study of Mus musculus with 32 samples.

Results

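The basement membrane genes described here are Col4a1, Col4a2, Lama1, Lama5, Lamb1, Lamc1, Nid1, Nid2, Hspg2 and Fn1. These 10 genes were taken by name, as the main structural components of the sheet, and were matched by Ensembl identifier to the 48576 identifiers of the expression tables. The rule uses no expression value. All 10 were found, and all 10 passed the filter on low values (an average of 1 FPKM or more, where FPKM is the number of fragments scaled by transcript length and library depth) in every comparison.

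A basement membrane is a thin sheet of extracellular matrix on which epithelia, including the neuroepithelium of the closing neural tube, rest. Laminin trimers, each of an alpha, a beta and a gamma chain, bind receptors on the cells and assemble at their surface, and a second network of collagen IV gives the sheet its mechanical strength. Nidogens and the proteoglycan perlecan (Hspg2) link both networks, and fibronectin (Fn1) lies in and beneath the sheet and in the adjoining mesenchyme.

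The libraries came from forebrain (Fb) and midbrain (Mb) pieces of mouse embryos at E9.5 (embryonic day 9.5), of strain B6C3F1 according to the labels, and the series asks how deletion of type II cadherins changes gene expression in these tissues. Each tissue had 16 libraries, namely 6 wild type (WT), 4 TKO_Ex, 3 DKO_Ex and 3 DKO_CD. TKO_Ex embryos lacked Cdh6, Cdh8 and Cdh11 and showed exencephaly, an open cranial neural tube. DKO_Ex embryos are labelled as Cdh8/11 double knockout with exencephaly. DKO_CD embryos had a cranial defect, defined as an elongated Mb without exencephaly, and the labels give them as Cdh6/8, whereas the methods give Cdh8/11. The alleles are short germline deletions in the exon with the start codon, made by genome editing, so every cell of a mutant embryo carries them and a transcript can still be counted. WT embryos came from WT matings and mutants from triple heterozygous matings, so genotype and litter cannot be told apart. No treatment was applied to any group.

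For 12 DKO tables the heading of the value column names one DKO group and the record that lists the table the other, and the headings were followed. Results over all 6 DKO libraries of a tissue do not depend on this. The estimated depth was 1940000 to 3240000 fragments per library (median 2600000), at which the members rested on a median of 128 (Nid2) to 1283 (Fn1) fragments per library. The tissue labels held for the marker lists: all 7 forebrain genes were lower in WT Mb than in WT Fb, and 4 of 6 midbrain genes were higher. Some exceptions touch the values below. WT Mb replicate 5 had 6 midbrain markers that summed to 16.4 FPKM against a WT Mb median of 132. Cdh6 stayed within the WT range in the replicate 3 libraries of TKO_Ex. DKO_CD Fb replicate 2 had 10 endothelial markers that summed to 34.2 FPKM against 74.3 and 76.6 in the other libraries of its group. TKO_Ex Fb replicate 4 was close to DKO_CD Fb replicate 2 in mean log2 marker level. Its means were 2.14 against 2.01 (endothelial), 3.63 against 3.60 (surface ectoderm) and 4.15 against 4.23 (forebrain). It held the lowest Fb values of Nid2 (4.28 FPKM), Hspg2 (12.8 FPKM) and Col4a2 (16.8 FPKM).

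Fn1 and Col4a1 had the highest levels of the 10 members and both laminin alpha chains the lowest. On the FPKM scale, which is per length of transcript, the WT Fb means ran from Fn1 at 56.2 ± 7.1 (SD, n = 6) and Col4a1 at 49.7 ± 11.2 through Col4a2 at 29.9 ± 4.43, Hspg2 at 26.8 ± 4.43 and Lamc1 at 25.9 ± 3.9. Below these followed Lamb1 at 18.1 ± 3.59, Nid1 at 14 ± 1.59, Nid2 at 12.6 ± 1.88, Lama5 at 9.67 ± 4.02 and Lama1 at 6.47 ± 1.03. In WT Mb the same 5 genes led, with Fn1 at 55.6 ± 7.76, Col4a1 at 45.0 ± 11.7, Col4a2 at 27.5 ± 5.56, Lamc1 at 22.5 ± 2.91 and Hspg2 at 20.3 ± 4.8. Lamb1 was in the sixth place in Fb and in the seventh in Mb, and Lama5 took the last place in Mb at 5.57 ± 1.15. In both tissues every pair of neighbours in this order had overlapping ranges, so the order of adjacent genes is not resolved by 6 libraries, whereas the lowest Fn1 library lay above the highest library of each laminin and nidogen gene.

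**Figure D1:**
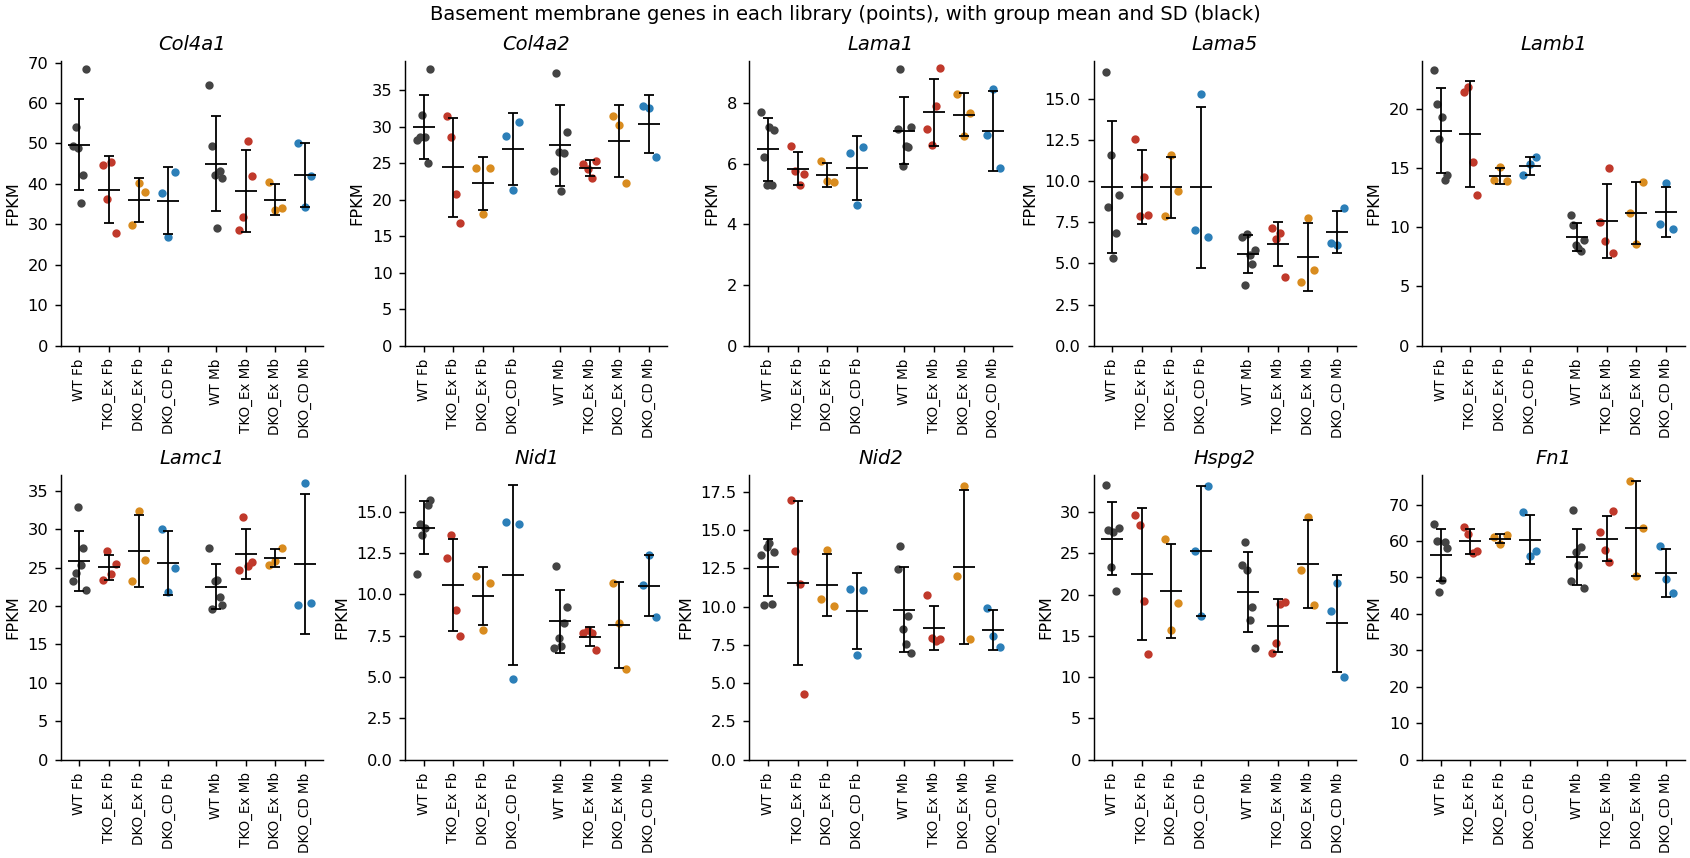
FPKM of each of the 10 basement membrane genes (vertical axes, starting at 0) in the 32 libraries, by genotype and tissue; points are libraries, black bars the mean and SD of 3 to 6 libraries. Lamb1 and Nid1 are lower in WT Mb (means 9.13 and 8.36) than in WT Fb (18.1 and 14), and the mutant groups overlap WT for most genes.

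Both collagen IV chains are made from one locus. Col4a1 (GRCm38, chromosome 8, 11198423 to 11312826, minus strand) and Col4a2 (chromosome 8, 11312805 to 11449287, plus strand) encode the chains of the common collagen IV trimer and are transcribed away from each other, with annotated first exons that overlap by 22 bases. The promoter window of RefSeq (250 bases before to 50 after the gene start) of Col4a2, chr8:11312555-11312854 on the plus strand of GRCm38.p6, is shown because it shares 78 bases with that of Col4a1 and because the members of this pair are compared with each other below. Capitals mark the 22 bases from the Col4a2 start to the Col4a1 start.
Col4a2: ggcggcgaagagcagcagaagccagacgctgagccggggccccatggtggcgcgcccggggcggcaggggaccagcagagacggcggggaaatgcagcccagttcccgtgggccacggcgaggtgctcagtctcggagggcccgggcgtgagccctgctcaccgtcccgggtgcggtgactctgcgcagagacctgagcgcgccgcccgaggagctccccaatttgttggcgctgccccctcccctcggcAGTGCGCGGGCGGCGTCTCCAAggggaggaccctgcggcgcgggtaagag
Windows were given for 6 of the 10 members (Col4a1, Col4a2, Lama5, Lamb1, Hspg2 and Nid1) and not for Lama1, Lamc1, Nid2 and Fn1. The letters GGGCGG, the core of a GC box, searched on both strands, occurred in all 6 windows, 1 to 5 times each, and in 35.7% of all 32851 windows of that length. CCAAT was present once each in Col4a1, Col4a2, Lamb1 and Nid1 (37.4% of all windows), and TATAAA in none (13.6%). The share of G and C in the 6 windows ran from 63.7% (Lamb1) to 74.0% (Col4a1), against a mean of 53.8% over all windows of that length. The matches describe the windows only.

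The first comparison asked which members differ between the WT tissues. Lamb1, the beta chain of the main laminins of the embryo, and Nid1, the nidogen that bridges laminin and collagen IV, were lower in Mb. They were the only members that passed the threshold of limma (adjusted p under 0.05 over 13344 genes), and 8.26% of all genes were called, 3.60% lower and 4.66% higher. No member was called higher. The estimates of 9 of 10 members were below 0, with a median log2 fold change of -0.27 over the members against -0.00 over all genes tested.

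Lamb1 (chromosome 12, 31265234 to 31329644, plus strand) ranged from 13.9 to 23.2 FPKM in WT Fb with a median of 18.4, and from 7.97 to 11 in WT Mb with a median of 8.70. The ranges did not overlap, all 6 Mb libraries lying below every Fb library, and the Mb mean was 0.504 times the Fb mean. The log2 fold change was -0.90 (SE 0.13, 95% interval -1.18 to -0.62, limma adjusted p = 0.000477). Leaving out any 1 of the 12 libraries gave estimates between -0.97 and -0.83, all past the threshold, among them the fit without WT Mb replicate 5. Nid1 (chromosome 13, 13437551 to 13512269, plus strand) ranged from 11.2 to 15.7 FPKM in WT Fb (median 14.1) and from 6.72 to 11.7 in WT Mb (median 7.80). Here 5 of 6 Mb libraries lay below every Fb library and only Mb replicate 2, at 11.7, reached the Fb range. The Mb mean was 0.596 times the Fb mean, with a log2 fold change of -0.70 (95% interval -0.98 to -0.42, limma adjusted p = 0.00372).

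The windows of both genes are shown because they are the members that differed between WT tissues. They lie on the plus strand of GRCm38.p6 at chr12:31265043-31265342 (Lamb1) and chr13:13437352-13437651 (Nid1), and capitals mark GGGCGG or its reverse complement.
Lamb1: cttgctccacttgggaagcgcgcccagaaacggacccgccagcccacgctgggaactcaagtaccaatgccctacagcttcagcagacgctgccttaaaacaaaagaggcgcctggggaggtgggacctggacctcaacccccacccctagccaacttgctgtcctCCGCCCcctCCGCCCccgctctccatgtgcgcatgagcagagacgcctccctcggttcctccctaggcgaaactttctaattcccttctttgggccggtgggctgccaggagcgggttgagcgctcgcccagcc
Nid1: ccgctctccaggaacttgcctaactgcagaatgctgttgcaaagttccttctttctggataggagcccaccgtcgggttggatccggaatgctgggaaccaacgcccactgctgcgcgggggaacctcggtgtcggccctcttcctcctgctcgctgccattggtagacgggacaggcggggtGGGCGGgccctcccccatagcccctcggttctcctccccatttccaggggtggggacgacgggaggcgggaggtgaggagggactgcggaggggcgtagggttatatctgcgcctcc
Lamb1 held 2 such matches and Nid1 held 1, so on this count they did not stand apart from the other 4 windows.

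The other members did not pass in WT. Lama5, an alpha chain, had the next largest estimate, with 5.32 to 16.6 FPKM in WT Fb (median 8.79) and 3.68 to 6.79 in WT Mb (median 5.67). Its Fb libraries spread more widely than those of Mb and overlapped them, and the log2 fold change was -0.64 (95% interval -1.12 to -0.16, adjusted p = 0.103). Without WT Fb replicate 4, which held the lowest Fb value, it was -0.78 with an adjusted p of 0.0393. Hspg2 gave -0.40 (-0.74 to -0.06, adjusted p = 0.163) and Nid2 -0.35 (-0.70 to -0.00, adjusted p = 0.237). Intervals for Lamc1 (-0.43 to 0.04), Col4a1 (-0.54 to 0.24), Col4a2 (-0.41 to 0.15) and Fn1 (-0.25 to 0.21) lay wholly above the upper bound of Lamb1's interval. Lama1 was the single member with a positive estimate, 0.12 (-0.15 to 0.38).

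The chain balance within laminin was compared as a ratio within each library, which does not depend on the scaling of the library. Lamb1 relative to Lamc1, the gamma chain it is assembled with, ran from 0.507 to 0.998 in WT Fb and from 0.353 to 0.519 in WT Mb. The geometric means were 0.693 and 0.405 (two-sided exact permutation p = 0.00433), and only 1 pair of values crossed between the tissues. Over the family of 28 ratios and comparisons the adjusted p was 0.121. The smallest exact permutation p that 6 against 6 libraries can give is 0.00216, or 0.0606 when multiplied by 28, so no ratio could have passed on its own and the adjusted values say nothing of whether the balance differed. Lama5 relative to Lama1 was 1.41 in Fb and 0.777 in Mb (exact permutation p = 0.0238, adjusted p = 0.333). The ratios of Col4a1 to Col4a2 (1.64 and 1.62, exact permutation p = 0.939) and of Nid2 to Nid1 (0.892 and 1.16, exact permutation p = 0.102) differed less.

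Markers of other cells in the dissected pieces moved between the WT tissues together with Lamb1 and Nid1. Summed over the list, 9 surface ectoderm markers gave 63.2 to 107 FPKM in WT Fb and 28.3 to 44.0 in WT Mb, with 5 of the 6 tested lower in Mb. The 10 measured mesenchyme markers of 11 listed gave 218 to 254 FPKM in WT Fb and 123 to 240 in WT Mb, with 5 lower and 1 higher of 10. The 6 measured neuron markers of 7 went the other way, from 8.88 to 17.5 FPKM in Fb and 39.8 to 90.7 in Mb, with all 6 higher, and the 8 neuroepithelium markers summed to 290 to 396 and 438 to 578 FPKM. The 10 endothelial markers overlapped, at 54.9 to 72.9 and 48.7 to 79.7 FPKM. No marker of these 5 lists was at 0 throughout a WT group, whereas Afp of the yolk sac endoderm list was at 0 in all WT libraries and Ttr in all WT Mb libraries. The part of these cells in the lower Lamb1 and Nid1 was not tested, and in bulk tissue fewer cells of a type cannot be told apart from less RNA per cell.

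The same contrast in the mutants, 10 Mb against 10 Fb libraries with TKO or DKO as a covariate, was added after the data were seen. Lamb1 was again lower in Mb, Lama5 was lower and Lama1 was higher, whereas Nid1 did not pass. Of 13452 genes tested 9.81% were called, 4.27% lower and 5.53% higher. Lamb1 ranged from 12.7 to 21.8 FPKM in mutant Fb (median 15.2) and from 7.84 to 14.9 in mutant Mb (median 10.4), so 7 of 10 Mb libraries lay below every Fb library. The log2 fold change was -0.52 (95% interval -0.76 to -0.27, limma adjusted p = 0.00557), and the Mb mean was 0.684 times that of Fb. Lama5 had 6.59 to 15.3 FPKM in mutant Fb (median 8.66) and 3.86 to 8.36 in mutant Mb (median 6.37), with overlapping ranges. Its log2 fold change was -0.56 (-0.88 to -0.25, adjusted p = 0.0181). Lama1, the other alpha chain, ran from 4.64 to 6.59 FPKM in mutant Fb and from 5.85 to 9.16 in mutant Mb, and 9 of 10 Mb libraries lay above every Fb library. Its log2 fold change was 0.32 (0.15 to 0.49, adjusted p = 0.0103). Over the mutant libraries the surface ectoderm markers summed to 82.7 to 239 FPKM in Fb and 24.8 to 86.8 in Mb, the mesenchyme markers to 119 to 255 and 157 to 312, and the neuron markers to 8.81 to 31.3 and 38.7 to 85.6. Their part in these differences was not tested.

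Nid1 in mutants ranged from 4.86 to 14.3 FPKM in Fb and from 5.50 to 12.4 in Mb, and no Mb library lay outside the Fb range on the low side. The log2 fold change was -0.24 (-0.59 to 0.11, adjusted p = 0.491). Whether the tissue difference itself changed was tested in each mutant group as an interaction with WT. For Lamb1 it was 0.19 (-0.34 to 0.72) in TKO_Ex, 0.55 (0.07 to 1.02) in DKO_Ex and 0.49 (0.04 to 0.94) in DKO_CD. For Nid1 it was 0.27 (-0.18 to 0.73), 0.42 (-0.13 to 0.97) and 0.74 (0.01 to 1.47), the last with DKO_CD Fb replicate 2 included. None of these passed (lowest adjusted p over the members 0.814, 0.9996 and 0.990), and the 3 tests share the 12 WT libraries. Over all genes 0.0149%, 0% and 0.00746% were called in these interactions, and 0, 1 and 2 members had an unadjusted p under 0.05, against 6.50%, 3.88% and 4.83% of all genes.

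**Figure D2:**
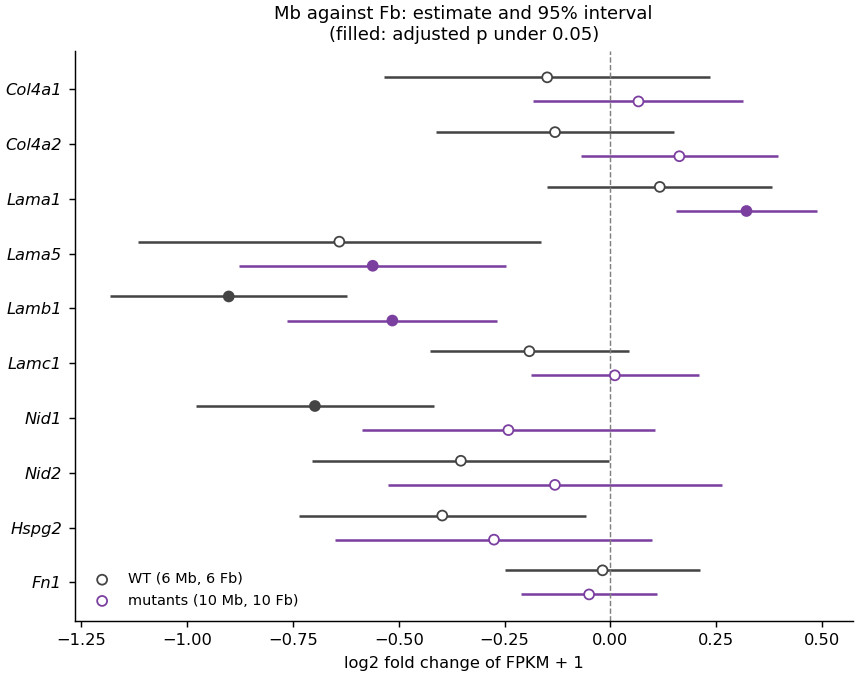
Log2 fold change of FPKM + 1 between Mb and Fb with its 95% interval (horizontal axis) for the 10 members in WT (6 and 6 libraries) and in all mutants (10 and 10); filled points passed the threshold. Lamb1 is below 0 in both, at -0.90 and -0.52, and Nid1 is filled in WT only, its difference between WT and mutants not having passed a test.

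The wider set of basement membrane genes held 69 listed genes in 6 groups, of which 54 were tested in WT. Between the WT tissues 5 were higher in Mb, 6 lower and 43 did not pass. Of all genes tested 4.66% were higher and 3.60% lower. Other laminin chains included the 2 calls opposite to Lamb1. Lamb2, the beta chain that can replace Lamb1 in a trimer, ranged from 9.19 to 17.0 FPKM in WT Fb and from 17.2 to 21.5 in WT Mb without overlap (log2 fold change 0.61, SE 0.15, limma adjusted p = 0.0214). The adjusted p rose to 0.0508 without WT Fb replicate 4, to 0.0506 without WT Mb replicate 5 and to 0.057 with the replicate number as a block. Lamc3, a gamma chain, ran from 0.0755 to 0.852 FPKM in WT Fb, or about 1 to 14 fragments, and from 1.3 to 3.42 FPKM in WT Mb (1.14, SE 0.19, adjusted p = 0.00173). Lama4, an alpha chain, did not pass (-0.16, 95% interval -0.58 to 0.26), nor did any of the 4 other collagens.

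Among the 12 basement membrane glycoproteins tested, Smoc1, a secreted calcium-binding protein of the SPARC family, was lower in Mb (-0.93, SE 0.15, adjusted p = 0.00105), and so was Fras1, the protein affected in Fraser syndrome (-0.56, SE 0.14, adjusted p = 0.0285). Smoc1 had 7.79 to 11.6 FPKM in WT Fb and 3.37 to 6.57 in WT Mb, without overlap. The 15 receptors tested split into 3 higher and 2 lower. The integrin subunit Itgb8 (1.08, SE 0.13, adjusted p = 0.000135) and the collagen receptor Ddr1 (1.02, SE 0.17, adjusted p = 0.00128) were higher in Mb, and the laminin receptor Bcam was lower (-0.82, SE 0.17, adjusted p = 0.00663). Ddr1 ran from 13.8 to 27.8 FPKM in WT Fb and from 33.4 to 51.1 in WT Mb. Of 9 proteases and inhibitors 2 were lower, the protease Adamts9 (-0.65, SE 0.17, adjusted p = 0.0283) and the membrane-anchored inhibitor Reck (-0.58, SE 0.15, adjusted p = 0.0263), and none of 10 collagen-modifying enzymes passed. Of 21 alternative settings, Fras1 and Adamts9 each lost their call in 9 and Reck in 6, whereas Smoc1, Itgb8, Ddr1 and Lamc3 lost it in no setting that tested them. In the mutants 10 genes of 55 were higher in Mb and 5 lower, against 5.53% and 4.27% of all genes tested. Of 28 alternative settings of this contrast, Mmp2 lost its call in 11, Serpinh1 and Sparc in 8 each, Plod2 in 7 and Npnt in 1. Lamc3 was again higher (1.03, adjusted p = 3.9e-05) and Smoc1 again lower (-0.90, adjusted p = 0.000882), while Lamb2 gave -0.01 (-0.35 to 0.34). A change of the Lamb2 tissue difference did not pass in the DKO_Ex and DKO_CD interactions with WT, where 0 of the other laminin chains were called.

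**Figure D3:**
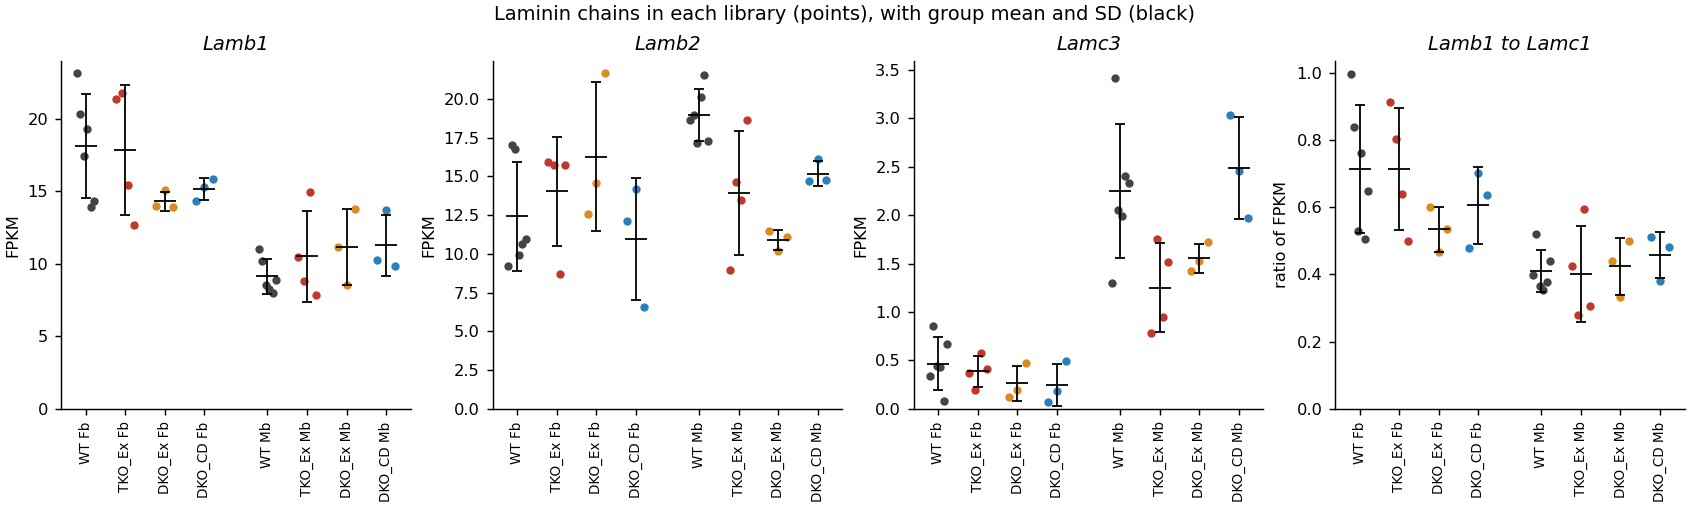
FPKM of Lamb1, Lamb2 and Lamc3 and the ratio of Lamb1 to Lamc1 (vertical axes, starting at 0) in the 32 libraries by genotype and tissue; points are libraries, black bars the mean and SD. In WT Mb Lamb1 is at 7.97 to 11 and Lamb2 at 17.2 to 21.5, and 9 of 10 mutant Mb libraries lie below that Lamb2 range. A change of the Lamb2 tissue difference did not pass in DKO_Ex or DKO_CD.

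The second question was whether the cadherin deletions change the members. In none of the 6 comparisons of a mutant group with WT of its tissue did a member pass limma's threshold. The background was low too. Of all genes 0.0898% were called in TKO_Ex Mb, 0.0903% in DKO_Ex Mb, 0.0375% in DKO_CD Mb, 0.0603% in TKO_Ex Fb, 0.0759% in DKO_Ex Fb and 0.0378% in DKO_CD Fb. At an unadjusted p under 0.05 there were 0 members in each Mb comparison, where 8.38%, 5.46% and 6.69% of all genes were (TKO_Ex, DKO_Ex and DKO_CD). In Fb there were 1, 3 and 1 members, against 8.66%, 7.01% and 8.44% of all genes. With all 6 DKO libraries as one group, 0 members passed in Mb and 0 in Fb (0.0899% and 0.136% of all genes), with 0 and 4 at an unadjusted p under 0.05 (6.41% and 8.09% of all genes).

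In Fb the estimates leaned to lower values in mutants. Of the members 8, 7 and 9 were below 0 in TKO_Ex, DKO_Ex and DKO_CD, with medians of -0.17, -0.23 and -0.14 against 0.02, -0.01 and 0.04 over all genes tested. These 3 comparisons share the 6 WT Fb libraries. Nid1 measured 11.1, 7.87 and 10.7 FPKM in DKO_Ex Fb, all below the WT Fb range of 11.2 to 15.7, and gave -0.47 (95% interval -0.78 to -0.16, adjusted p = 0.439). In TKO_Ex Fb it measured 12.2, 13.6, 9.07 and 7.46 FPKM (-0.40, -0.75 to -0.05, adjusted p = 0.502). In DKO_CD Fb replicate 2, at 4.86, stood below replicates 1 and 3, which were both at 14.3 (-0.43, -1.05 to 0.19, adjusted p = 0.71). Nid1 thus left the WT range in all 3 DKO_Ex libraries, in 2 of 4 TKO_Ex libraries and in 1 of 3 DKO_CD libraries. The highest DKO_Ex library, at 11.08 FPKM, lay just below the lowest WT library, at 11.24. The share of all genes that left the WT range in this way was not counted.

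Col4a2 measured 24.3, 18.0 and 24.3 FPKM in DKO_Ex Fb, all below the WT Fb range of 24.9 to 37.9 (-0.42, -0.74 to -0.10, adjusted p = 0.57). The margin was small, with 24.35 FPKM as the highest DKO_Ex value and 24.95 as the lowest WT value. The share of all genes placed in this way was not counted. Col4a1, the partner of Col4a2, measured 29.8, 40.2 and 38.0 FPKM in DKO_Ex Fb, overlapping the WT Fb range of 35.4 to 68.3 (-0.44, -0.85 to -0.03, adjusted p = 0.667). Over all 6 DKO Fb libraries Col4a1 gave -0.45 (-0.78 to -0.12, adjusted p = 0.431) and Col4a2 -0.28 (-0.57 to -0.00, adjusted p = 0.614). Fn1 had a positive estimate in all 3 Fb comparisons, 0.10 to 0.12, with intervals from -0.17 to 0.37. Grouped by record instead of heading, the DKO_Ex and DKO_CD values change places, and no member passed either way.

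The mesenchyme markers were also lower in DKO_Ex Fb and TKO_Ex Fb. Their summed level was 159 to 183 FPKM in DKO_Ex Fb and 157 to 204 in TKO_Ex Fb, below the 218 to 254 of WT Fb, and in DKO_CD Fb 119 in replicate 2 against 221 and 255. The 9 surface ectoderm markers summed to 82.7 to 172 FPKM in DKO_Ex Fb, 94.8 to 239 in TKO_Ex Fb and 82.8 to 223 in DKO_CD Fb, against 63.2 to 107 in WT Fb. None of the tested markers of either list passed limma in DKO_Ex Fb. Within DKO_Ex Fb the mesenchyme list did not follow the order of Nid1. Replicate 1 had the lowest mean log2 mesenchyme level (3.41) and the highest Nid1 (11.1 FPKM). The endothelial list had mean log2 levels of 2.61, 2.33 and 2.65 in DKO_Ex Fb, against 2.41 to 2.81 in WT Fb. In TKO_Ex Fb these levels were 2.81, 2.71, 2.20 and 2.14. The part of these lists in the Fb values of Nid1 and Col4a2 was not tested.

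In Mb the members scattered around 0. Of the members 5, 3 and 5 were below 0 in TKO_Ex, DKO_Ex and DKO_CD, with medians of -0.01, 0.14 and 0.06 against 0.02, 0.03 and 0.02 over all genes. Lamb1 measured 10.47, 8.83, 14.9 and 7.84 FPKM in TKO_Ex Mb, 11.2, 8.57 and 13.8 in DKO_Ex Mb and 10.3, 13.7 and 9.82 in DKO_CD Mb. Each group overlapped the WT Mb range of 7.97 to 11, and the estimates were 0.16 (-0.21 to 0.52), 0.25 (-0.10 to 0.61) and 0.27 (-0.06 to 0.60). Lamc1 gave 0.24 (-0.01 to 0.50), 0.22 (-0.04 to 0.48) and 0.13 (-0.29 to 0.54). Across the 10 members and the 3 Mb comparisons the 95% intervals reached from -0.87 to 0.89, and across the 3 Fb comparisons from -1.05 to 0.73 on the log2 scale, the widest belonging to single members and most being narrower. Nothing in the labels says that replicates of a group came from separate litters, so the p-values measure only the spread between these libraries.

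Among the other basement membrane genes 1 passed in 1 of the 6 comparisons. Lamb2 was lower in DKO_Ex Mb, at 11.5, 10.2 and 11.1 FPKM against 17.2 to 21.5 in WT Mb (-0.74, SE 0.11, limma adjusted p = 0.0405). All 3 libraries lay below every WT Mb library. The call was lost when any 1 of the 9 libraries was left out (adjusted p 0.0684 to 0.255), and under the grouping by record the estimate was -0.30 (adjusted p = 0.645). In TKO_Ex Mb Lamb2 measured 8.95, 14.6, 13.5 and 18.6 FPKM (-0.46, -0.82 to -0.10, adjusted p = 0.49) and over all DKO Mb libraries it gave -0.52 (-0.77 to -0.27, adjusted p = 0.219).

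**Figure D4:**
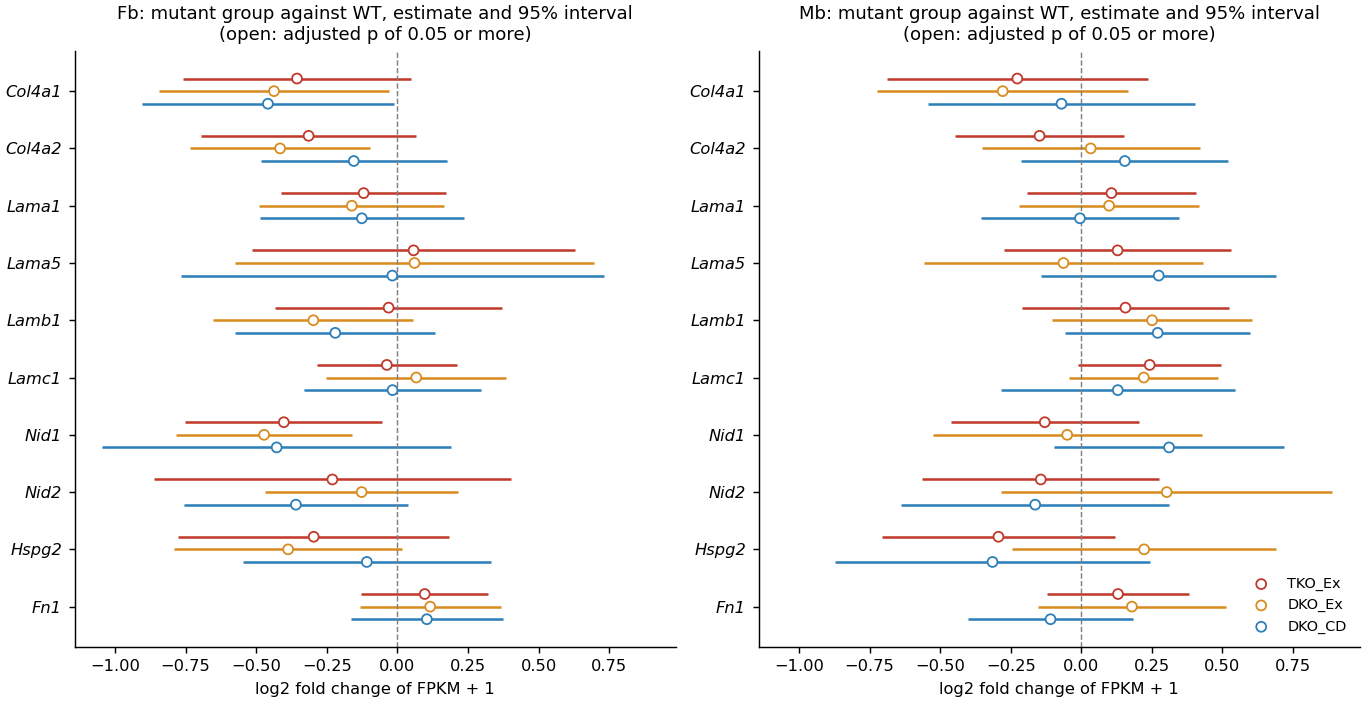
Log2 fold change of FPKM + 1 with its 95% interval (horizontal axis) of the 10 members in TKO_Ex, DKO_Ex and DKO_CD against WT, in Fb (left) and Mb (right); all points are open because none passed the threshold. In Fb 24 of the 30 estimates lie below 0, against 13 of 30 in Mb, and estimates of 1 tissue share their WT libraries.

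Partner genes were then followed from library to library, over the 16 libraries of a tissue. Of 8 relations 2 passed by Pearson's r and 0 by Spearman's rho. Col4a1 and Col4a2, the head to head pair, varied together in Fb (r = 0.65, permutation p = 0.00673, adjusted p = 0.0269; rho = 0.50, permutation p = 0.0495, adjusted p = 0.198), and r stayed at 0.65 without the 2 libraries farthest from the median. In Mb r was 0.23 (permutation p = 0.383), and with values centred on their group the Fb relation was 0.55 (adjusted p = 0.109). Lama1 and Lama5, the alternative alpha chains, moved oppositely in Mb (r = -0.69, permutation p = 0.00322, adjusted p = 0.0258; rho = -0.56, permutation p = 0.024, adjusted p = 0.192). Without the 2 extreme libraries r was -0.49, and centred on the group it was -0.77 (adjusted p = 0.00408). In Fb r was -0.18 (permutation p = 0.509). Values centred on their group were permuted over all libraries of a tissue and not within groups, so their p-values tend to be too small. Over the 6 WT libraries of a tissue none of the 8 relations passed.

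The members were also set against the mean level of 10 marker lists, in 200 relations of which 11 passed by Pearson's r and 3 by Spearman's rho. Nid1 followed the mesenchyme list in Fb (r = 0.85, permutation p = 6e-05, adjusted p = 0.006; rho = 0.90, permutation p = 2e-05, adjusted p = 0.004) and in Mb (r = 0.74, adjusted p = 0.0222; rho = 0.59, adjusted p = 0.278, by permutation). In Fb it also followed the endothelial list (r = 0.84, adjusted p = 0.006; rho = 0.70, adjusted p = 0.09, by permutation) and ran opposite to the surface ectoderm list (r = -0.87, adjusted p = 0.006; rho = -0.74, adjusted p = 0.068, by permutation). Without the 2 libraries farthest from the median of the list these 4 values of r were 0.89, 0.57, 0.67 and -0.76. Hspg2 followed the endothelial list in Fb (r = 0.83, adjusted p = 0.006; rho = 0.83, adjusted p = 0.012, by permutation), as did Col4a2 (r = 0.78, adjusted p = 0.0146; rho = 0.75, adjusted p = 0.0675, by permutation) and Lama1 (r = 0.75, adjusted p = 0.0189; rho = 0.77, adjusted p = 0.0493, by permutation). The other 4 that passed by r alone were Col4a2 and Hspg2 with the surface ectoderm list in Fb (r = -0.79 and -0.78), Nid2 with the forebrain list in Fb (r = 0.75, but 0.26 without the 2 extreme libraries) and Nid1 with the yolk sac endoderm list in Mb (r = 0.75), a list whose defining genes Afp and Ttr were at 0 in most groups.

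The number of relations that passed depended on the libraries used. Without WT Mb replicate 5, TKO_Ex replicate 3 and DKO_CD Fb replicate 2, a choice made after seeing the data, 1 of 200 passed, Hspg2 with the endothelial list (r = 0.86, adjusted p = 0.046; rho = 0.79, adjusted p = 0.126; n = 14, by permutation), and Nid1 with the mesenchyme list in Fb gave r = 0.75 (adjusted p = 0.0949) and rho = 0.88 (adjusted p = 0.016, by permutation). Most r moved little with these libraries left out, on 14 libraries in place of 16. For Col4a2 with the endothelial list it was 0.78 in both. For Nid1 with the mesenchyme list in Mb it went from 0.74 to 0.76. Nid1 with the endothelial list went from 0.84 to 0.73 and Lama1 with that list from 0.75 to 0.61. TKO_Ex Fb replicate 4 stayed in, though its endothelial, surface ectoderm and forebrain marker levels were close to those of DKO_CD Fb replicate 2. Several Fb values depended on 2 of the 14 libraries, those farthest from the median of the list. Without these 2, r with the endothelial list was 0.33 for Col4a2, 0.17 for Nid1, 0.59 for Hspg2 and 0.63 for Lama1. With the surface ectoderm list r was -0.09 for Col4a2, -0.26 for Nid1 and -0.08 for Hspg2. Nid1 with the mesenchyme list in Fb kept r = 0.85. With each library centred on its group 13 passed, by permutation over all libraries and not within groups, which tends to give p-values that are too small. Lamb1 passed with none of the lists in either tissue, its 20 values of r lying between -0.40 and 0.53 (lowest adjusted p = 0.21, by permutation).

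**Figure D5:**
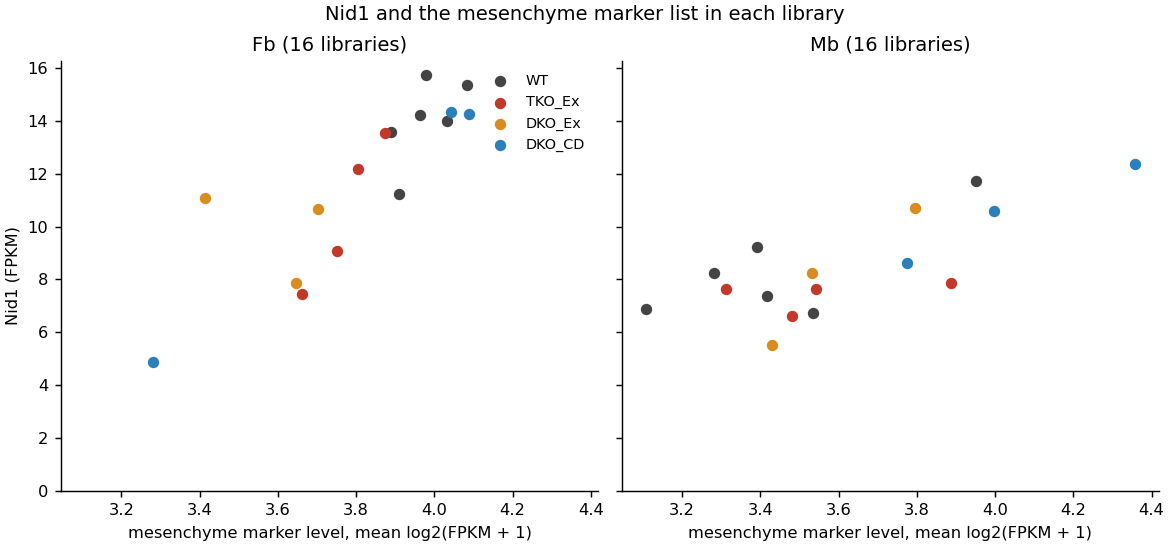
Nid1 in FPKM (vertical axis, starting at 0) against the mean log2(FPKM + 1) of 10 mesenchyme markers (horizontal axis) in 16 Fb and 16 Mb libraries, coloured by genotype. Pearson's r is 0.85 in Fb and 0.74 in Mb, and DKO_CD Fb replicate 2 lies at the lower left with 4.86 FPKM.

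As a description, the genes whose profile over the 32 libraries was most like the mean standardised profile of the members, among 6746 genes averaging 10 FPKM or more, were Plvap (r = 0.75), Thop1 (0.73), Twist1 (0.73), Cyb5r1 (0.73) and Alx4 (0.72). Plvap is an endothelial protein, Twist1 and Alx4 are transcription factors of the cranial mesenchyme, and Twist1 is also on the mesenchyme list used above. The points share library, depth and tissue.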

How the data were processed

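RNA from E9.5 Fb and Mb was sequenced from directional libraries. TopHat2 was used by the authors for alignment to GRCm38, and the deposited FPKM values come from Cufflinks, scaled for length and mapped fragments; versions and gene annotation are not given in the sources used here. HTSeq counts and the authors' DESeq2 tests were not used here. FPKM of 65 repeated identifiers were summed. Positions are those of GENCODE M21 (48218 of 48576 identifiers). For depth, the value of 1 fragment was read in each library from 771 genes with 1 annotated transcript of 4000 bp or longer, and 89.4% to 98.3% of their low values lay within 0.1 of a whole multiple of it.

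log2(FPKM + 1) was tested with limma 3.58.1 in R 4.3.3 (lmFit, eBayes with trend) where a gene averaged 1 FPKM or more across the fitted libraries, with Benjamini-Hochberg adjustment over all of them and a threshold of 0.05. A fold change on this scale understates that of low genes. Each mutant group had its own fit with WT, and tissue differences in effect were an interaction. Ratios were tested by exact permutation and correlations with 100000 permutations (SciPy 1.17.1, Python 3.11.15). The models were tested on simulated data with a fixed, assumed spread between libraries, which does not measure the power of the comparisons above.

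Members and gene lists were chosen with earlier results of these data known. Genes named beyond the members were the at most 3 largest changes per role past the threshold, marker lists that moved with a result, and the 5 most alike genes. Alternatives were pseudocounts of 0.1 and 5, no filter, 1 FPKM in every library, median-of-ratios scaling, quantile normalization, no trend, all groups in one fit, a replicate block, grouping by record, a log2 fold change of at least 1 and leaving out each library. Promoter windows came from RefSeq (GRCm38.p6). Foxc2 and Tubb3 of the marker lists were not analysed here.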

Additional observations from a re-analysis of the deposited data

Results flagged for a closer look

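In 116 sets of 4 or 6 libraries of 1 gene and 1 group (the members and the called pathway genes), 7 single libraries lay far from the others by Dixon's ratio, where chance alone gives about 1 in 20 sets. 3 of the members did so in TKO_Ex Mb. Lamc1 was at 31.6 FPKM in replicate 2, with the next library at 25.7. Nid1 was at 6.601 FPKM in replicate 4, with the others from 7.64 to 7.85. Nid2 was at 10.8 FPKM in replicate 1, with the others from 7.78 to 7.94.

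Of the other basement membrane genes, Lamb2 was at 8.72 FPKM in TKO_Ex Fb replicate 3, below the remaining libraries at 15.7 to 15.95. The collagen chaperone Serpinh1 was at 294 FPKM in the same library, above the others at 249 to 254, and at 324 FPKM in WT Mb replicate 1, above the others at 228 to 263. The collagen receptor Ddr1 was at 44.9 FPKM in TKO_Ex Mb replicate 4, above the others at 31.6 to 33.0.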

How the results depend on the processing

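The members called between the WT tissues were 2 as reported, 2 under each of the 9 other settings of pseudocount, filter, scaling, trend, fitted libraries and block, and 2 to 3 when any 1 library was left out, the third being Lama5 without WT Fb replicate 4. Over the mutant libraries 3 were called in each of these fits (range 3 to 3). Requiring a log2 fold change of at least 1 left 0 in both. The 11 comparisons of mutants with WT and of their tissue interactions gave 0 members in all 241 alternative fits, leave-one-out fits (0 to 0) included, while the genes called overall ranged from 0 to 52, the most without WT Mb replicate 1 for TKO_Ex Mb (main 12). Between tissues they ranged from 780 to 1317 in WT (main 1102) and from 905 to 1452 in mutants (main 1319). Ratios passed in 0 of 28 as reported and in every alternative (leave-one-out 0 to 0), which says nothing of stability, since no single ratio could pass with so few libraries. Of 8 partner relations 2 passed, 0 in WT libraries only, 1 with group-centred values and 2 without the doubted libraries. Of 200 marker relations 11 passed, 0 in WT libraries only, where 6 libraries are too few for a single relation to pass, and 1 without the doubted libraries, an alternative chosen after seeing the data. Of 3556 alternative values for single genes none of a called gene changed sign, 129 values that did not pass did, 85 lost their call, of which 15 were Lamb2 in DKO_Ex Mb, and 1 gained one.

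With the replicate number as a block, 2 members were called between the WT tissues, 3 between the mutant tissues and 0 in each comparison of mutants with WT. The numbers were not taken as pairing. Deviations of Mb and Fb libraries of one number correlated at 0.03 to 0.09 in WT and at 0.01 to 0.14 in the mutant groups. Of the Mb libraries, 5 of 6 WT, 3 of 3 DKO_Ex, 2 of 3 DKO_CD and 3 of 4 TKO_Ex correlated best with their own number. Between mutant and WT libraries of a tissue, 0 did so in every group. The labels do not state a pairing, so this remains a hint. The main tissue tests and the ratio tests treated Mb and Fb libraries as unpaired. Lamb2 between the WT tissues had an adjusted p of 0.057 under the block. At about 2600000 fragments, genes near 1 FPKM such as Lamc3 rest on few fragments.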
